A study of Homo sapiens with 9 samples.

Results

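The 28 genes described here make cholesterol, sense it, carry it inside the cell and export it. They were chosen with earlier results of these data known, taken as a list of symbols, and matched to the 36601 genes of the count tables. All 28 were found, and all 28 passed the low-count filter that left 15560 genes for testing. By role, 18 are enzymes that build cholesterol from acetyl-CoA, 4 regulate the SREBP transcription factors, 1 is a sterol carrier, and 5 are the LXR receptors or genes that LXR controls in uptake and efflux.

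Cells build cholesterol from acetyl-CoA through mevalonate, farnesyl diphosphate, squalene and lanosterol. When membrane sterol in the endoplasmic reticulum is low, the escort protein SCAP carries SREBP precursors to the Golgi, where proteases release the active factors that turn on the synthesis and uptake genes; when sterol is high, INSIG proteins hold SCAP back. Oxysterols that build up in sterol-rich cells activate the LXR receptors, which turn on exporters such as ABCA1. In hepatic stellate cells, the retinoid-storing pericytes that make scar matrix in the injured liver, free cholesterol is known to influence activation.

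The samples were 9 cultures of LX2, an immortalised human hepatic stellate cell line. There were 3 cultures with siRNA against YAP (siYAP), 3 with siRNA against TAZ (siTAZ) and 3 with a non-targeting siRNA (siNT). YAP (gene YAP1) and TAZ (gene WWTR1) are related transcriptional co-activators of the Hippo pathway. All cultures received 20 nM siRNA by lipofection, grew in medium with fetal bovine serum and antibiotics, and were analysed at 7 days by sequencing of mRNA libraries made from total RNA. Serum supplies lipoprotein cholesterol to every group. No sequence is stated for the siRNAs, nor whether each was 1 siRNA or a pool, and a single cell line stands for stellate cells. The submitters call the 3 cultures of each group biological replicates without saying how they were kept separate, so the spread behind each p-value is that between these libraries and may be technical.

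Each library held between 16498508 and 18752805 counts in genes. Levels below are CPM, a gene's count relative to its library total, with totals adjusted by TMM, and a floor of 3 counts equals 0.157 to 0.177 CPM, covering counting error only. YAP1 had 28.0, 25.7 and 25.2 CPM in siYAP libraries, 176, 161 and 173 CPM in siTAZ libraries, and 212, 212 and 205 CPM in siNT libraries. WWTR1 had 76.2, 75.2 and 75.9 CPM in siYAP libraries, 8.61, 9.56 and 10.4 CPM in siTAZ libraries, and 66.1, 64.1 and 55.8 CPM in siNT libraries. Each targeted gene was thus lowest in its own knockdown, with no overlap. The other gene differed too, as every siYAP library had more WWTR1, and every siTAZ library less YAP1, than any siNT library. Of 10 stellate cell markers 9 were tested, and DES averaged 0.130, 0.250 and 0.269 CPM in siYAP, siTAZ and siNT libraries. The hepatocyte marker ALB averaged 0.0177 CPM in siYAP libraries and was at 0 in siTAZ and siNT libraries. ALB was below the floor in every library and was not tested. Another hepatocyte marker, CPS1, was far above the floor, at 52.0, 108 and 110 CPM in siYAP, siTAZ and siNT libraries. In bulk RNA, fewer cells of a type and less RNA per cell cannot be told apart.

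Promoter sequence is shown first, because the synthesis genes are the textbook targets of SREBP and its partner NF-Y. RefSeq promoter windows (GRCh38.p14, 250 bases before to 50 after each annotated start) were matched for 24 of the 28 genes, in 32 windows; ACAT2, FDFT1, SQLE and ABCG1 were not matched. Both strands were searched for 4 motifs, none of which contains another: the sterol regulatory element TCACNCCAC, the NF-Y box CCAAT, the TEAD box GGAATG, and the LXR direct repeat, which is 2 copies of AGGTCA held 4 bases apart. The NF-Y box was present for 18 of the 24 genes (75.0%) and for 13 of 15 synthesis enzymes (86.667%), against 42.673% of the 11717 tested genes that had a window. The TEAD box, the site of the factors that YAP and TAZ bind, was present for 5 of 24 (PMVK, HSD17B7, EBP, STARD4 and NR1H3; 20.833%) against 15.106% of tested genes. The exact sterol regulatory element occurred for 1 of 24 genes (4.167%), SREBF2, against 1.442% of tested genes, and the exact LXR repeat for 0 of 24 against 0.009%. Absence says only that these letters are not in this window.

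The SREBF2 window is printed because it was the single exact match to the sterol element, which is in capitals; it lies on the plus strand at chr22:41832962-41832991, and the element starts 133 bases before the gene start.
SREBF2: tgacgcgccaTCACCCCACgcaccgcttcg
The NF-Y box of the same promoter follows at chr22:41832987-41833016, 106 bases before the start, in capitals and read as ATTGG on the gene's strand.
SREBF2: cttcgctcgcccATTGGctgagatgagcct

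NF-Y boxes of 7 further genes are printed for comparison with their expression. These 7 were picked after the expression values were seen, and include genes called lower, genes called higher and 1 gene not called after siYAP. The box is again in capitals, and each window is given 5′ to 3′ on the gene's own strand. MVK lies at chr12:109573736-109573765 (plus), IDI1 at chr10:1048956-1048985 (minus), DHCR7 at chr11:71448424-71448453 (minus) and STARD4 at chr5:111512648-111512677 (minus).
MVK: tcgcgcgctctgATTGGctggcctgaagta
IDI1: ctggcgcgagcgATTGGctgcgcggcccgg
DHCR7: ggtccgcctccgATTGGcaggcaatcgctg
STARD4: ctcccgcgccagCCAATccgaacaagcgca
LSS lies at chr21:46228907-46228936 (minus), SC5D at chr11:121292703-121292732 (plus) and INSIG1 at chr7:155297696-155297725 (plus).
LSS: cgcggcgctctgATTGGttgcgtgggcgtc
SC5D: cgccggtcgctgATTGGctggccgctccag
INSIG1: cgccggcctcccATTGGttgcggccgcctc

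After YAP knockdown, 18 of the 28 genes fell (64.3%), 6 rose and 4 were not called, at an adjusted p under 0.05 in edgeR's quasi-likelihood test, with Benjamini-Hochberg adjustment across the tested genes; every adjusted p below is of this kind unless another tool is named. Over all 15560 genes the siYAP comparison called 33.4% lower and 33.8% higher, so the share of lower genes among the 28 was above that background and the share of higher genes (21.4%) below it. Their median log2 fold change was -0.36, against 0.02 over all genes. After TAZ knockdown, 16 of the 28 fell (57.1%), 3 rose and 9 were not called, against a background of 18.2% lower and 16.4% higher; the median was -0.26, against 0.01 over all genes. Both comparisons use the same siNT libraries. Since the 28 genes were chosen with earlier results of these data known, these shares only describe the list. The falls after siYAP were unequal, with 5 genes more than 2-fold lower (ACAT2, FDFT1, IDI1, STARD4 and ABCG1), whereas none of the 16 falls after siTAZ passed 2-fold. Changes after siTAZ were smaller in general. The quartiles of all genes were -0.42 and 0.49 on the log2 scale after siYAP, and -0.18 and 0.20 after siTAZ. Most of the 16 falls after siTAZ were not called in a test for more than a 1.2-fold change. The counts of this test for the 28 genes and for all genes are given together with the processing checks below.

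**Figure D1:**
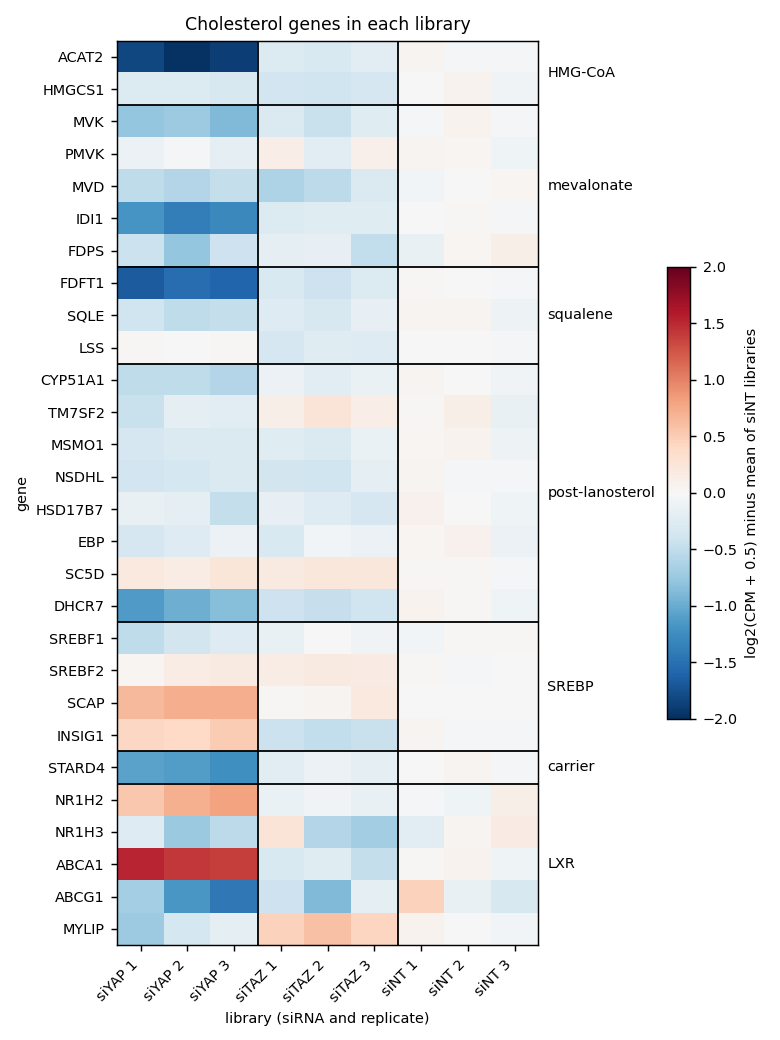
Level of each of the 28 genes (rows, grouped by step) in each of the 9 libraries (columns), as log2(CPM + 0.5) minus the mean of the 3 siNT libraries, blue for lower and red for higher. ACAT2, IDI1, FDFT1, DHCR7, STARD4 and ABCG1 are darkest blue on average over the siYAP columns, with ABCG1 uneven. ABCA1 is red in those columns, and the siTAZ columns are mostly pale blue.

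The 18 synthesis enzymes carried most of the falls. After siYAP 14 fell (77.8%, against 33.4% of all genes), 1 rose (5.56%, against 33.8%) and 3 were not called. The enzyme median log2 fold change was -0.40, with a range from -1.91 to 0.20. After siTAZ 13 fell (72.2%, against 18.2% of all genes), 1 rose (5.56%, against 16.4%) and 4 were not called. The median was -0.27, with a narrower range from -0.48 to 0.21. Summed over the 18 enzymes, the level was 1151 ± 7.31 CPM in siYAP libraries, 1398 ± 36.3 CPM in siTAZ libraries and 1673 ± 55.0 CPM in siNT libraries (SD, n = 3 each), and the 3 groups did not overlap.

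The first step joins acetyl-CoA units. ACAT2 makes acetoacetyl-CoA in the cytosol and showed the largest fall of the 28 genes after siYAP; it lies on chromosome 6, at 159760328 to 159779055 on the plus strand (GRCh38, GENCODE 29). It had 29.4, 26.4 and 28.1 CPM in siYAP libraries, 86.6, 84.9 and 89.6 CPM in siTAZ libraries, and 110, 104 and 102 CPM in siNT libraries. The groups did not overlap, and siYAP lay far below the other two. ACAT2 was 3.75-fold lower after siYAP (log2 fold change -1.91 ± 0.06 SE, adjusted p = 3.3e-38) and 1.21-fold lower after siTAZ (-0.27 ± 0.05, adjusted p = 2.4e-05). Its exons overlap those of TCP1 and SOD2 on the opposite strand. SOD2, a mitochondrial antioxidant enzyme, was 3.20 higher on the log2 scale after siYAP, and TCP1, a chaperonin subunit, was at -0.10. Reads that fall in 2 genes were set aside in the deposited counts (6.33% to 6.91% of all counted reads per library), no strand setting is stated, and the part of this overlap in the ACAT2 value was not tested. CYP51A1, MVK, SREBF1, TM7SF2 and NR1H3 also share exon bases with another protein-coding gene.

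HMGCS1, which adds the next acetyl group to form HMG-CoA, had a different order. Its levels were 156, 156 and 152 CPM in siYAP libraries, 145, 143 and 150 CPM in siTAZ libraries, and 189, 199 and 181 CPM in siNT libraries. Both knockdowns lay below siNT in every library. The log2 fold change was -0.29 ± 0.04 after siYAP (adjusted p = 3.5e-09) and -0.38 ± 0.04 after siTAZ (adjusted p = 7.2e-12). The difference between siTAZ and siYAP, -0.09 ± 0.04, was not called (adjusted p = 0.059), although RLE scaling (adjusted p = 0.0464), upper-quartile scaling (0.0252) and a stricter low-count filter (0.0491) did call it.

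From mevalonate to farnesyl diphosphate, 4 of the 5 enzymes fell after each knockdown, where 33.4% of all genes fell after siYAP and 18.2% after siTAZ. IDI1, which isomerises the 5-carbon isoprene unit, had 37.8, 32.8 and 35.1 CPM in siYAP libraries, 71.3, 73.0 and 72.5 CPM in siTAZ libraries, and 85.2, 88.0 and 85.2 CPM in siNT libraries. No 2 groups overlapped. IDI1 was 2.45-fold lower after siYAP (log2 fold change -1.29 ± 0.06, adjusted p = 9.3e-29) and 1.19-fold lower after siTAZ (-0.25 ± 0.06, adjusted p = 0.00020).

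Mevalonate kinase, MVK, had 27.1, 27.9 and 25.1 CPM in siYAP libraries, 38.0, 34.1 and 39.4 CPM in siTAZ libraries, and 45.2, 49.1 and 45.4 CPM in siNT libraries. It stood in the same order as IDI1, with no overlap (log2 fold change -0.80 ± 0.08 after siYAP, adjusted p = 1.2e-14, and -0.33 ± 0.07 after siTAZ, adjusted p = 0.00025). Mevalonate diphosphate decarboxylase, MVD, had 38.3, 36.0 and 38.9 CPM in siYAP libraries, 35.2, 37.7 and 44.4 CPM in siTAZ libraries, and 52.5, 54.7 and 56.3 CPM in siNT libraries. MVD was below siNT in all 6 knockdown libraries, by -0.53 ± 0.07 after siYAP (adjusted p = 1.6e-09) and -0.48 ± 0.07 after siTAZ (adjusted p = 9.5e-08), the largest log2 fall of any enzyme after siTAZ, and the knockdowns overlapped each other.

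FDPS, which makes farnesyl diphosphate, the branch point to sterols and to protein prenylation, had 26.7, 20.8 and 27.0 CPM in siYAP libraries, 31.7, 32.2 and 25.5 CPM in siTAZ libraries, and 32.6, 36.8 and 38.9 CPM in siNT libraries. One siTAZ library lay among the siYAP values. The fall was -0.54 ± 0.09 after siYAP (adjusted p = 1.3e-06) and -0.28 ± 0.09 after siTAZ (adjusted p = 0.014). The siTAZ call was lost without siTAZ replicate 3 (-0.18, adjusted p = 0.151), without siNT replicate 2 (adjusted p = 0.0549) or without siNT replicate 3 (0.105). FDPS has 8 annotated pseudogenes that can compete for its reads. PMVK, the second kinase, averaged 14.2 ± 0.807 CPM in siYAP, 15.5 ± 1.99 CPM in siTAZ and 15.4 ± 0.801 CPM in siNT libraries (SD, n = 3 each). The PMVK groups overlapped and neither comparison was called (adjusted p = 0.40 for siYAP and 0.95 for siTAZ).

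Squalene formation and cyclisation held the second largest enzyme fall after siYAP and LSS, the 1 enzyme called lower after siTAZ than after siYAP at the reported settings. FDFT1, squalene synthase, commits the pathway to sterols. It had 34.9, 38.7 and 37.2 CPM in siYAP libraries, 90.2, 84.1 and 93.0 CPM in siTAZ libraries, and 114, 112 and 110 CPM in siNT libraries. The groups were well apart. FDFT1 was 3.03-fold lower after siYAP (log2 fold change -1.60 ± 0.06, adjusted p = 3.5e-35) and 1.26-fold lower after siTAZ (-0.33 ± 0.05, adjusted p = 3.4e-07).

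SQLE, the oxygen-requiring squalene epoxidase, had 105, 96.7 and 99.7 CPM in siYAP libraries, 116, 111 and 124 CPM in siTAZ libraries, and 143, 144 and 129 CPM in siNT libraries. The groups did not overlap, and SQLE fell by 0.46 ± 0.05 on the log2 scale after siYAP (adjusted p = 3.9e-13) and by 0.24 ± 0.05 after siTAZ (adjusted p = 2.6e-05). Lanosterol synthase, LSS, closes the sterol rings. LSS had 172, 170 and 173 CPM in siYAP libraries, 135, 144 and 142 CPM in siTAZ libraries, and 170, 172 and 168 CPM in siNT libraries. Here the siYAP and siNT libraries overlapped within a few CPM and only the siTAZ libraries stood lower. The log2 fold change was 0.01 ± 0.04 after siYAP (adjusted p = 0.77) and -0.28 ± 0.04 after siTAZ (adjusted p = 5.8e-08), and the difference between siTAZ and siYAP was itself called (-0.29 ± 0.04, adjusted p = 3.5e-09).

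From lanosterol to cholesterol, 6 of 8 enzymes fell and 1 rose after siYAP, and 4 fell and 1 rose after siTAZ. All genes gave 33.4% lower and 33.8% higher after siYAP, and 18.2% and 16.4% after siTAZ. DHCR7, which reduces 7-dehydrocholesterol in the last step of one arm of the pathway, had 79.4, 89.0 and 96.7 CPM in siYAP libraries, 132, 128 and 132 CPM in siTAZ libraries, and 184, 177 and 165 CPM in siNT libraries. All 3 groups were apart, siYAP lowest and siNT highest. DHCR7 was 1.99-fold lower after siYAP (log2 fold change -0.99 ± 0.05, adjusted p = 2.3e-23) and 1.34-fold lower after siTAZ (-0.43 ± 0.05, adjusted p = 3.7e-10).

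CYP51A1, the lanosterol demethylase, had 169, 169 and 160 CPM in siYAP libraries, 222, 205 and 219 CPM in siTAZ libraries, and 252, 243 and 229 CPM in siNT libraries. The order was that of DHCR7, with smaller steps (-0.54 ± 0.04 after siYAP, adjusted p = 5.1e-19, and -0.16 ± 0.04 after siTAZ, adjusted p = 0.00064). CYP51A1 has 3 annotated pseudogenes. NSDHL, the sterol dehydrogenase of C4-demethylation, had 41.0, 41.7 and 43.7 CPM in siYAP libraries, 41.0, 40.4 and 46.3 CPM in siTAZ libraries, and 55.6, 52.0 and 52.4 CPM in siNT libraries. MSMO1, the methyl oxidase of the same reactions, had 99.7, 103 and 103 CPM in siYAP libraries, 106, 103 and 115 CPM in siTAZ libraries, and 128, 131 and 117 CPM in siNT libraries. Log2 fold changes after siYAP and siTAZ were -0.34 ± 0.07 and -0.33 ± 0.07 for NSDHL (adjusted p = 9.9e-06 and 6.7e-05), and -0.30 ± 0.05 and -0.22 ± 0.05 for MSMO1 (adjusted p = 9.1e-08 and 0.00016). The knockdowns overlapped each other for NSDHL, and siTAZ minus siYAP was not called for either gene (0.01 ± 0.07, adjusted p = 0.86, for NSDHL and 0.09 ± 0.05, adjusted p = 0.11, for MSMO1, which was called without siTAZ replicate 2, at 0.13 with adjusted p = 0.031).

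SC5D, the sterol desaturase that makes 7-dehydrocholesterol, was the exception among the enzymes. It had 71.5, 69.2 and 73.8 CPM in siYAP libraries, 70.4, 73.4 and 72.9 CPM in siTAZ libraries, and 63.1, 63.5 and 60.5 CPM in siNT libraries. Every knockdown library was above every siNT library, and the gene rose by 0.20 ± 0.06 after siYAP (adjusted p = 0.0015) and 0.21 ± 0.06 after siTAZ (adjusted p = 0.0018). SC5D and DHCR7 act one after the other and moved in opposite directions in both knockdowns.

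The 3 other late enzymes had weaker or no calls. EBP, the sterol isomerase, averaged 31.0 ± 2.46 CPM in siYAP, 32.8 ± 2.95 CPM in siTAZ and 36.6 ± 2.70 CPM in siNT libraries, and was called lower after siYAP (log2 fold change -0.24 ± 0.08, adjusted p = 0.0072) although 1 siYAP library overlapped siNT. After siTAZ EBP was not called (-0.16 ± 0.08, adjusted p = 0.13). HSD17B7, the 3-ketosteroid reductase, which has 2 annotated pseudogenes, averaged 12.2 ± 1.48 CPM in siYAP, 12.3 ± 0.757 CPM in siTAZ and 14.8 ± 0.911 CPM in siNT libraries. Its siYAP call (-0.28 ± 0.12, adjusted p = 0.037) was lost without siYAP replicate 3 (-0.18, adjusted p = 0.219), without siNT replicate 1 (adjusted p = 0.121) or 2 (0.0558), with upper-quartile scaling (0.0670) and in DESeq2 (0.0501). The sterol reductase TM7SF2 averaged 7.66 ± 0.795 CPM in siYAP, 10.6 ± 0.594 CPM in siTAZ and 9.39 ± 0.886 CPM in siNT libraries. It was not called against siNT in either knockdown (adjusted p = 0.066 for siYAP, or 0.0347 without siNT replicate 3, and 0.35 for siTAZ), but siTAZ lay above siYAP (0.47 ± 0.14, adjusted p = 0.0028).

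**Figure D2:**
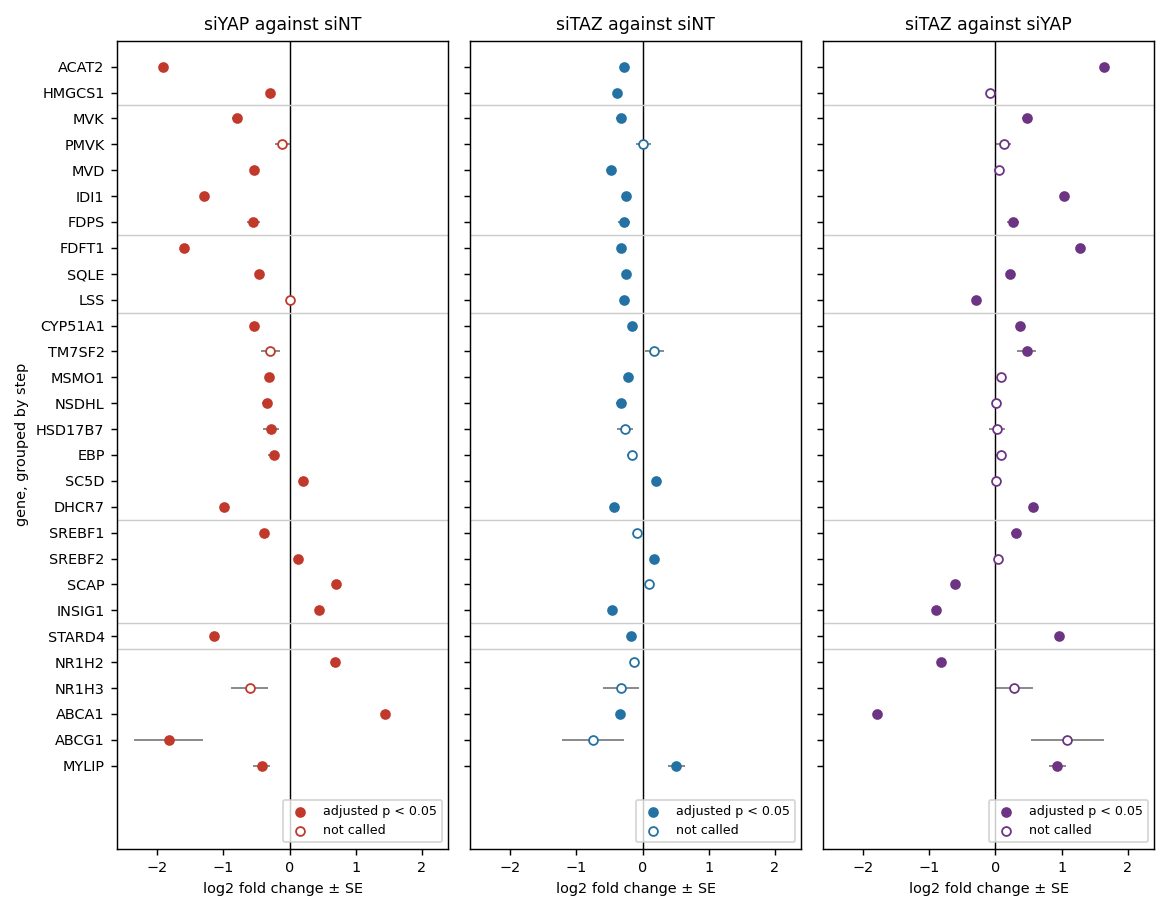
Log2 fold change with its standard error for the 28 genes in pathway order, for siYAP against siNT, siTAZ against siNT and siTAZ against siYAP; filled points passed an adjusted p under 0.05. Falls after siYAP reach -1.91 for ACAT2 and the rise of ABCA1 reaches 1.45, whereas the filled points after siTAZ lie between -0.48 and 0.51.

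The 4 SREBP regulators gave 3 rises and 1 fall after siYAP, and 1 rise and 1 fall after siTAZ. Of all genes 33.8% rose and 33.4% fell after siYAP, and 16.4% rose and 18.2% fell after siTAZ. SREBF2 encodes SREBP-2, the form that mainly drives cholesterol synthesis. It had 236, 253 and 259 CPM in siYAP libraries, 254, 260 and 256 CPM in siTAZ libraries, and 233, 225 and 228 CPM in siNT libraries. All 6 knockdown libraries lay above siNT, and SREBF2 rose by 0.12 ± 0.04 after siYAP (adjusted p = 0.0031) and 0.17 ± 0.04 after siTAZ (adjusted p = 0.00021). SREBF1, whose SREBP-1 forms drive mainly fatty acid synthesis, had 42.1, 46.1 and 49.9 CPM in siYAP libraries, 53.7, 59.6 and 57.0 CPM in siTAZ libraries, and 57.8, 60.8 and 60.8 CPM in siNT libraries. SREBF1 was lower after siYAP without overlap (-0.38 ± 0.06, adjusted p = 5.7e-07), and the siTAZ and siNT libraries overlapped (-0.08 ± 0.06, adjusted p = 0.39). These counts measure transcripts and carry no information on SREBP cleavage.

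SCAP, the sterol-sensing escort of SREBP, had 167, 174 and 176 CPM in siYAP libraries, 108, 110 and 121 CPM in siTAZ libraries, and 105, 107 and 106 CPM in siNT libraries. The siYAP libraries stood well above both other groups. SCAP was 1.63-fold higher after siYAP (log2 fold change 0.70 ± 0.04, adjusted p = 2.7e-22) and was not called after siTAZ (0.09 ± 0.05, adjusted p = 0.11), though upper-quartile scaling called it (0.11, adjusted p = 0.0464).

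INSIG1 retains SCAP in the endoplasmic reticulum and is itself a classic SREBP target. It lies on chromosome 7, at 155297776 to 155310235 on the plus strand. INSIG1 had 168, 165 and 179 CPM in siYAP libraries, 93.0, 88.6 and 92.3 CPM in siTAZ libraries, and 131, 123 and 123 CPM in siNT libraries. The siNT libraries lay between the knockdowns, with no overlap on either side. INSIG1 was 1.36-fold higher after siYAP (log2 fold change 0.44 ± 0.04, adjusted p = 5.4e-14) and 1.37-fold lower after siTAZ (-0.46 ± 0.05, adjusted p = 4.5e-13). The difference of siTAZ from siYAP was -0.90 ± 0.04 (adjusted p = 2.1e-27).

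The soluble sterol carrier STARD4, which moves cholesterol between membranes and is a known SREBP-2 target, fell after both knockdowns. It had 61.8, 60.0 and 55.6 CPM in siYAP libraries, 113, 120 and 114 CPM in siTAZ libraries, and 129, 136 and 127 CPM in siNT libraries. Every siYAP library lay far under every other library. STARD4 was 2.21-fold lower after siYAP (log2 fold change -1.14 ± 0.05, adjusted p = 4.3e-30) and 1.13-fold lower after siTAZ (-0.18 ± 0.05, adjusted p = 0.0022). Its antisense partner STARD4-AS1, whose exons overlap it, was at -0.40 after siYAP and 0.48 after siTAZ, and since no strand setting is stated, the part of their shared exon bases in these values was not tested.

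On the LXR side, ABCA1 rose after siYAP, where most enzymes fell. This transporter loads cellular cholesterol and phospholipid onto apolipoproteins, and lies on chromosome 9, at 104781002 to 104928237 on the minus strand. ABCA1 had 165, 153 and 150 CPM in siYAP libraries, 46.4, 48.4 and 40.9 CPM in siTAZ libraries, and 57.9, 60.3 and 53.6 CPM in siNT libraries. The siYAP libraries were the highest by a wide margin and the siTAZ libraries the lowest. ABCA1 was 2.72-fold higher after siYAP (log2 fold change 1.45 ± 0.06, adjusted p = 9.4e-33) and 1.26-fold lower after siTAZ (-0.34 ± 0.06, adjusted p = 5.8e-06). It had the largest difference of siTAZ from siYAP among the 28 genes (-1.78 ± 0.06, adjusted p = 5.3e-37).

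The exporter ABCG1, which passes cholesterol to HDL particles and is also an LXR target, was close to the floor. It had 12, 6 and 3 counts in siYAP libraries, 16, 9 and 19 counts in siTAZ libraries, and 34, 20 and 17 counts in siNT libraries. In CPM this was 0.638, 0.313 and 0.177 in siYAP libraries, 0.866, 0.491 and 1.10 in siTAZ libraries, and 2.0, 1.15 and 0.962 in siNT libraries. The siYAP libraries were below siNT, by -1.83 ± 0.52 (adjusted p = 0.0016; -2.44 without siYAP replicate 1 to -1.47 without siNT replicate 1, called each time), while siTAZ overlapped siNT (-0.74 ± 0.47, adjusted p = 0.23). The difference of siTAZ from siYAP (1.08 ± 0.55, adjusted p = 0.076) was called without siYAP replicate 1 (1.69, adjusted p = 0.0268) or siTAZ replicate 2 (1.36, adjusted p = 0.0401). ABCA1 and ABCG1 therefore stood in opposite directions after siYAP, the second at a depth of a few reads per library.

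MYLIP, an LXR-induced ubiquitin ligase that sends lipoprotein receptors to degradation, also split the knockdowns. It had 7.08, 9.40 and 10.6 CPM in siYAP libraries, 16.7, 18.5 and 16.5 CPM in siTAZ libraries, and 12.7, 12.0 and 11.5 CPM in siNT libraries. The siNT libraries again lay in between. MYLIP was 1.43-fold higher after siTAZ (log2 fold change 0.51 ± 0.12, adjusted p = 0.00056) and 1.34-fold lower after siYAP (-0.42 ± 0.13, adjusted p = 0.0037). Without siYAP replicate 1 the siYAP call was lost (-0.28, adjusted p = 0.0711).

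The receptors themselves differed in level and behaviour. NR1H2, the widely expressed LXR-beta, had 101, 113 and 121 CPM in siYAP libraries, 62.7, 65.1 and 61.7 CPM in siTAZ libraries, and 67.6, 64.4 and 74.4 CPM in siNT libraries. NR1H2 was 1.62-fold higher after siYAP (log2 fold change 0.69 ± 0.06, adjusted p = 3.6e-16). After siTAZ it overlapped siNT (-0.12 ± 0.06, adjusted p = 0.11), and leaving out siNT replicate 2 gave a call (-0.17, adjusted p = 0.0435). NR1H3, LXR-alpha, had 2.66, 1.77 and 2.13 CPM in siYAP libraries, 4.06, 2.02 and 1.85 CPM in siTAZ libraries, and 2.77, 3.45 and 3.74 CPM in siNT libraries. The siYAP libraries were all below siNT but the difference missed the threshold (-0.60 ± 0.28, adjusted p = 0.051), and leaving out any 1 of 5 libraries gave a call (adjusted p = 0.0291 to 0.0404). The siTAZ libraries overlapped both other groups (-0.33 ± 0.27 against siNT, adjusted p = 0.39), with a call without siTAZ replicate 1 (-0.78, adjusted p = 0.0451).

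**Figure D3:**
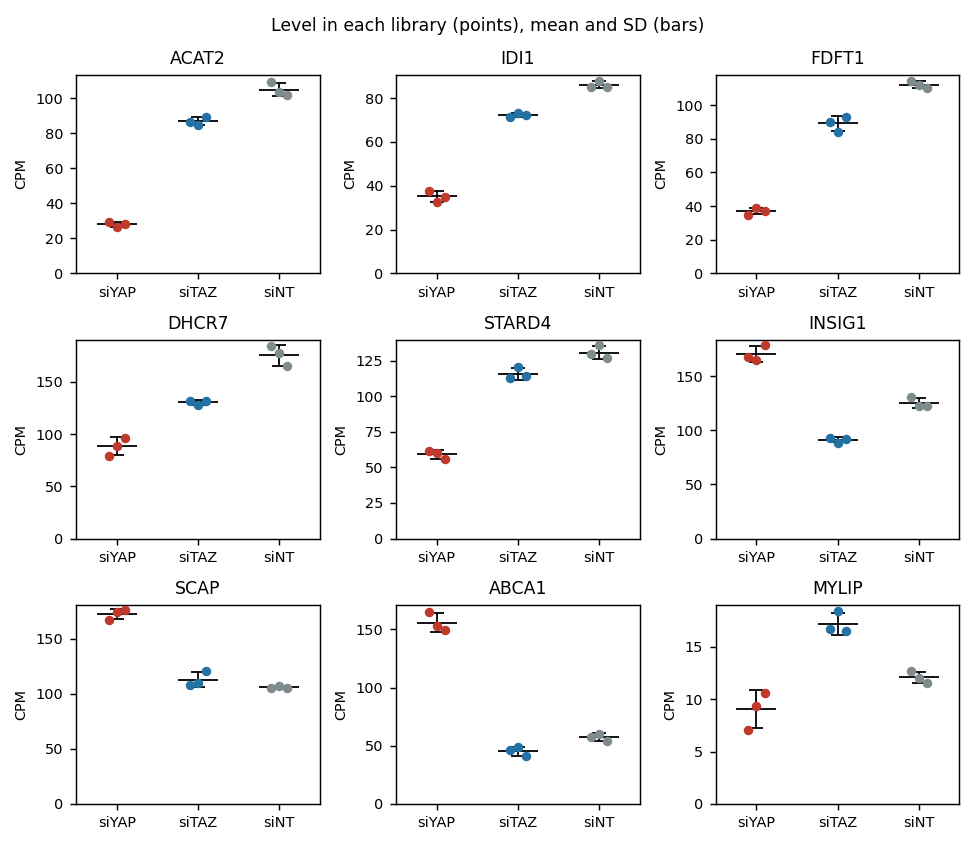
CPM of 9 genes in each library (points), with the mean and SD of the 3 libraries of each group (bars), for siYAP, siTAZ and siNT. In the top row and for DHCR7 and STARD4 the siYAP points are lowest, INSIG1, SCAP and ABCA1 have the siYAP points highest, and for MYLIP the siTAZ points are highest.

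Set directly against each other, siTAZ libraries were higher than siYAP libraries for 12 of the 28 genes, lower for 5 and not called for 11, where all genes gave 33.0% higher and 33.2% lower. Of the 18 enzymes 9 were higher after siTAZ, 8 were not called (among them HMGCS1, described above), and LSS was the 1 called lower. The largest of these differences were ACAT2 (log2 fold change 1.64 ± 0.06, adjusted p = 2.9e-34), FDFT1 (1.27 ± 0.06, adjusted p = 1.6e-29) and IDI1 (1.04 ± 0.06, adjusted p = 9.2e-24). The 5 genes lower after siTAZ than after siYAP were LSS, SCAP, INSIG1, NR1H2 and ABCA1. The FDPS difference (0.27 ± 0.09, adjusted p = 0.011) came from overlapping libraries and was lost without siYAP replicate 2 (0.16, adjusted p = 0.160), without siTAZ replicate 1 (adjusted p = 0.0581) or 2 (0.0604).

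Levels between genes were compared as CPM per kilobase of exon. CYP51A1 was second of the 28 genes after siYAP (46.3 CPM per kb) and first after siTAZ (60.1) and siNT (67.3). INSIG1 took the first place after siYAP with 46.8 CPM per kb, where it was at 25.0 after siTAZ and 34.4 after siNT. ABCA1 ranked 12 after siYAP (13.7 CPM per kb), 24 after siTAZ (3.99) and 23 after siNT (5.05). ACAT2 moved the other way, at rank 21 after siYAP (6.51 CPM per kb), 10 after siTAZ (20.2) and 9 after siNT (24.4). NR1H3 and ABCG1 held ranks 27 and 28 in every group, at up to 0.732 and 0.224 CPM per kb. NR1H2 was at 29.7, 16.8 and 18.3 CPM per kb after siYAP, siTAZ and siNT, so LXR-beta transcript exceeded LXR-alpha transcript in all 3 groups.

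**Figure D4:**
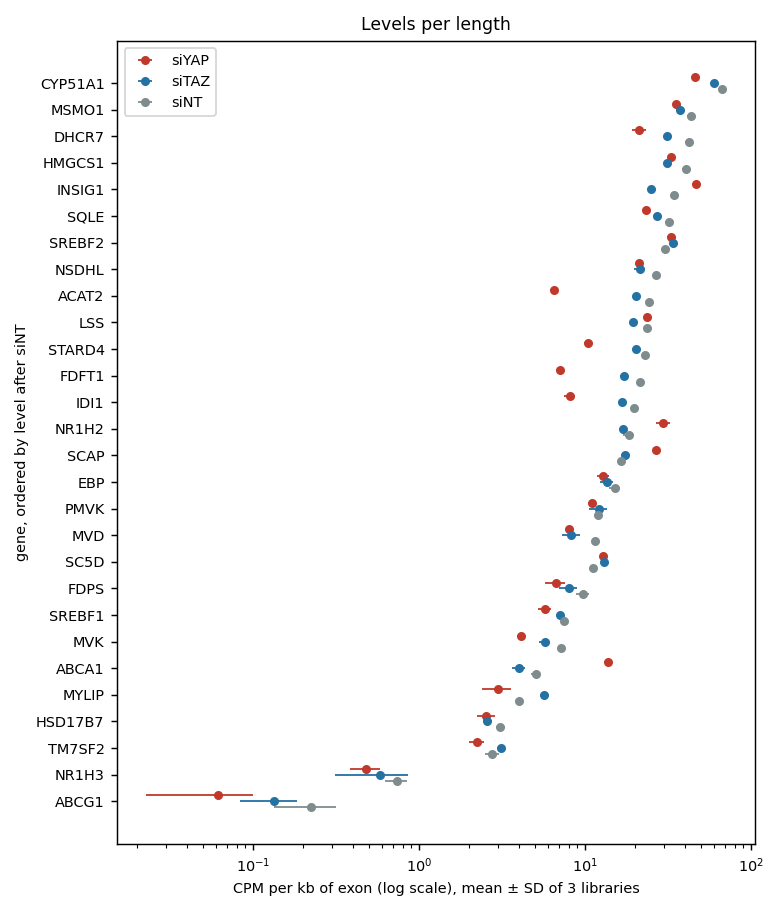
Mean level with SD over 3 libraries, in CPM per kilobase of exon on a log axis, for the 28 genes ordered by their level after siNT. The siYAP points of ACAT2, FDFT1, IDI1 and STARD4 lie far left of the siTAZ and siNT points, that of ABCA1 lies far right, and NR1H3 and ABCG1 are the lowest genes in all groups.

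Neighbouring genes of the same biology were read from 5 further lists of 57 genes, of which 54 were tested. After siYAP 22 of these rose and 20 fell, against 33.8% and 33.4% of all genes, and after siTAZ 11 rose and 13 fell, against 16.4% and 18.2%. In the isoprenoid branch, which uses farnesyl diphosphate for prenylation, dolichol and ubiquinone, 7 of 12 genes fell and 4 rose after siYAP (median log2 fold change -0.37), and 2 fell and 1 rose after siTAZ (median -0.01). PDSS1, which starts the ubiquinone side chain, was at -0.76 and the prenyltransferase subunit PGGT1B at -0.61 after siYAP, where RABGGTA, a subunit of the enzyme that prenylates Rab proteins, rose by 1.08 and NUS1, for dolichol, by 0.25. After siTAZ PGGT1B rose by 0.36, NUS1 was at -0.22 and the prenylcysteine methyltransferase ICMT at -0.13. The ICMT call was lost without siNT replicate 1 (-0.09, adjusted p = 0.0899). ICMT was also lower after siYAP, at -0.59.

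Among 11 genes of SREBP processing and sterol sensing, 7 rose (63.6%) and 3 fell (27.3%) after siYAP (median 0.30). After siTAZ 2 rose (18.2%) and 4 fell (36.4%) (median 0.06). The all-gene shares were 33.8% higher and 33.4% lower after siYAP, and 16.4% and 18.2% after siTAZ. The protease MBTPS2, which makes the final cut that frees SREBP, averaged 15.1 ± 0.701 CPM in siYAP, 50.1 ± 3.39 CPM in siTAZ and 45.3 ± 3.89 CPM in siNT libraries. Its log2 fold change was -1.58 ± 0.08 after siYAP (adjusted p = 3.7e-26), and it was not called after siTAZ (adjusted p = 0.12). The sterol-regulated protein TMEM97 was at -0.72 after siYAP, where INSIG2, the second SCAP retention protein, rose by 0.78 and ERLIN2, a sterol-sensitive membrane protein, by 0.73. After siTAZ ERLIN2 fell by 0.44, while ERLIN1 rose by 0.30 and the ubiquitin ligase RNF145 by 0.22. ERLIN1 and RNF145 also rose after siYAP, by 0.29 and 0.43, and TMEM97 was also lower after siTAZ, at -0.17.

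Of 15 genes for sterol transport, storage and lipoprotein receptors, 8 rose (53.3%) and 4 fell (26.7%) after siYAP (median 0.30). After siTAZ 5 rose (33.3%) and 2 fell (13.3%) (median 0.11). For all genes these shares were 33.8% and 33.4% after siYAP, and 16.4% and 18.2% after siTAZ. The sterol transfer proteins GRAMD1B and STARD3 rose by 1.17 and 1.12 after siYAP, whereas the receptors LRP8 and SCARB1 fell by 0.56 and 0.50. The endocytic receptor LRP1 averaged 779 ± 57.0 CPM in siYAP, 244 ± 18.2 CPM in siTAZ and 404 ± 30.5 CPM in siNT libraries, and rose by 0.95 after siYAP (adjusted p = 2.5e-05) while it fell by 0.72 after siTAZ (adjusted p = 0.00041). After siTAZ the lysosomal proteins SCARB2 and NPC2 rose by 0.43 and 0.37. SCARB2 and NPC2 also rose after siYAP, by 0.24 and 0.84. GRAMD1C, at -0.46 after siTAZ, was at the edge of the threshold (adjusted p = 0.045) and lost it in DESeq2 (0.0574), limma-voom (0.0582) and when any 1 of 5 libraries was left out.

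The 9 lipogenic targets of SREBP-1 gave 5 falls (55.6%) and 1 rise (11.1%) after siYAP (median -0.27). After siTAZ they gave 4 falls (44.4%) and 0 rises (median -0.08). Among all genes 33.4% fell and 33.8% rose after siYAP, and 18.2% fell and 16.4% rose after siTAZ. Stearoyl-CoA desaturase, SCD, averaged 63.1 ± 5.02 CPM in siYAP, 293 ± 2.31 CPM in siTAZ and 484 ± 17.6 CPM in siNT libraries (log2 fold change -2.94 ± 0.04 after siYAP, adjusted p = 1.7e-55, and -0.72 ± 0.04 after siTAZ, adjusted p = 6.9e-25). The acetyl-CoA synthetase ACSS2 fell by 1.36 after siYAP and the desaturase FADS1 rose by 0.51 there. Fatty acid synthase, FASN, was lower after both knockdowns, at -0.78 after siYAP and -0.36 after siTAZ. Of 10 oxysterol enzymes and LXR partners 7 were tested. Of these 2 rose (28.6%) and 1 fell (14.3%) after siYAP, and 3 rose (42.9%) and 1 fell (14.3%) after siTAZ. The count of rises after siTAZ ranged from 0 to 3 over left-out libraries, with 0 without siNT replicate 2 or siTAZ replicate 1. The phospholipid transfer protein PLTP, an LXR target, averaged 86.6 ± 6.37 CPM in siYAP, 20.4 ± 1.69 CPM in siTAZ and 17.5 ± 0.721 CPM in siNT libraries. This was a rise of 2.31 ± 0.08 after siYAP (adjusted p = 8.2e-37), and PLTP was also called higher after siTAZ (0.22 ± 0.09, adjusted p = 0.036). The sterol 27-hydroxylase CYP27A1 rose by 1.12 after siYAP, and the LXR partner RXRA fell by 0.41 after siYAP and 0.24 after siTAZ. CYP27A1 (0.50, adjusted p = 0.040) and the phospholipid acyltransferase LPCAT3 (0.24, adjusted p = 0.036) were called higher after siTAZ but not in DESeq2 (0.0698 and 0.0513) and lost the call when any 1 of 4 libraries was left out for each gene.

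**Figure D5:**
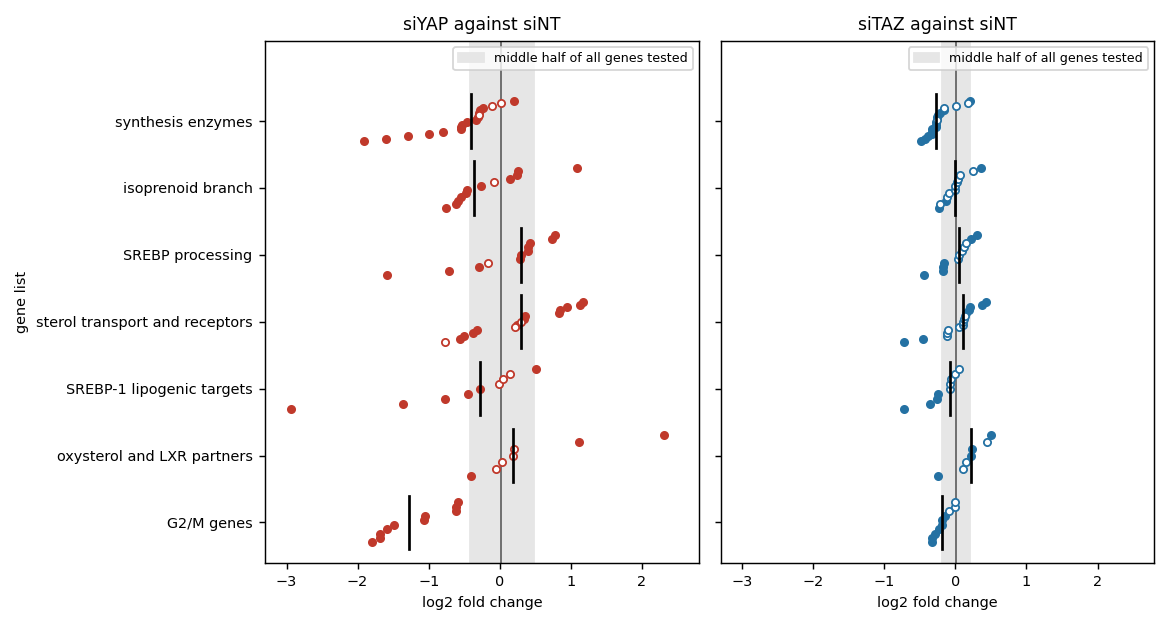
Log2 fold change of each tested gene (points, filled where called), with list medians (black bars), for the enzymes, the 5 further lists and 10 G2/M cell cycle genes, after siYAP (left) and siTAZ (right); grey spans the lower to upper quartile of all genes tested. The enzyme median is -0.40 after siYAP and -0.27 after siTAZ, and the G2/M median is -1.28 after siYAP and -0.18 after siTAZ.

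Other features of the cultures moved with these results. All 10 G2/M cell cycle genes fell after siYAP (median log2 fold change -1.28) and 7 of 10 after siTAZ (median -0.18). For this and the next list, the all-gene shares were 33.4% lower and 33.8% higher after siYAP, and 18.2% and 16.4% after siTAZ. The summed G2/M level was 1390 to 1468 CPM in siYAP, 2744 to 2787 CPM in siTAZ and 2967 to 3112 CPM in siNT libraries. The 10 stellate cell markers summed to 4746 to 4820 CPM in siYAP, 14713 to 14810 CPM in siTAZ and 9967 to 10089 CPM in siNT libraries, most of it COL1A1 and SPARC. Of the 9 tested, 6 fell and 3 rose after siYAP (COL1A2 by 1.07, PDGFRA by 1.08 and ACTA2 by 0.65 on the log2 scale), and 1 fell and 7 rose after siTAZ. The 5 leukocyte and macrophage markers summed to 123 to 127 CPM in siYAP, 21.5 to 24.4 CPM in siTAZ and 33.2 to 36.7 CPM in siNT libraries, with CD3E at or near 0. CD68, a lysosomal protein, averaged 115 CPM in siYAP, 12.4 CPM in siTAZ and 22.3 CPM in siNT libraries, and CD14 10.2, 9.29 and 9.96 CPM. The leukocyte marker PTPRC ran the other way in siYAP libraries, at 0.147 CPM in siYAP, 0.427 CPM in siTAZ and 2.60 CPM in siNT libraries, and was called lower after both knockdowns (adjusted p = 2.4e-09 for siYAP and 7.5e-06 for siTAZ). The 5 hepatocyte markers summed to 51.3 to 53.8 CPM in siYAP, 106 to 111 CPM in siTAZ and 104 to 116 CPM in siNT libraries, nearly all of it CPS1. Sums of the 4 cholangiocyte markers, mostly SOX9, were 79.9 to 83.1 CPM in siYAP, 68.4 to 72.1 CPM in siTAZ and 50.04 to 52.6 CPM in siNT libraries, and those of the 4 endothelial markers, with CLEC4G at 0, were 6.17 to 7.51, 2.44 to 3.22 and 6.28 to 7.13 CPM in siYAP, siTAZ and siNT libraries. Within that list PECAM1 averaged 6.39, 0.367 and 0.519 CPM and CDH5 averaged 0.364, 2.33 and 5.21 CPM in siYAP, siTAZ and siNT libraries, so the members went opposite ways after siYAP (log2 fold changes 3.60 and -3.81). Reads in no annotated gene amounted to 6.68% ± 0.75 of all counted reads in siYAP, 5.57% ± 0.05 in siTAZ and 4.93% ± 0.20 in siNT libraries (SD, n = 3 each). Mitochondrial genes took 0.876% ± 0.175 of gene counts in siYAP, 1.53% ± 0.109 in siTAZ and 1.37% ± 0.110 in siNT libraries, and the siYAP libraries were below all others. The part of any of these in the cholesterol gene values was not tested.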

How the data were processed

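Each library was deposited as a list of unnormalised HTSeq counts for Ensembl gene IDs; the submitters' processing notes also name STAR 2.5.0c, Trim Galore, Picard and SAMtools. Those notes name the mouse build mm10, whereas all 36601 gene IDs are human, so the build and annotation behind the counts are unknown here, as is the strand setting. Of the IDs, 36366 were named by lookup in a symbol table and 219 by GENCODE 29. Genes with low counts were dropped with edgeR 4.0.16 (filterByExpr, minimum count 10, minimum total 15) in R 4.3.3. Libraries were scaled by TMM, and a robust quasi-likelihood model (common biological coefficient of variation 0.0469) was fitted to all 9 libraries by group. Each comparison used a two-sided test adjusted over 15560 genes. Rows for reads in no gene or in more than 1 gene stayed out of library sizes.

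Alternatives were other scalings and filters, the replicate number as a block, compared groups alone, DESeq2 1.42.0, limma-voom (limma 3.58.1), stricter thresholds and leaving out each library. The fit was tested on simulated data. With 50 of 15560 genes changed at each of several folds, the siYAP layout recovered 39 at 2-fold and 23 at 1.2-fold, and the siTAZ layout 43 and 15. Unchanged genes gave 11 false calls in the siYAP layout and 12 in the siTAZ layout. Far fewer genes were changed here than were called in the data, so these recovery counts need not hold for the real comparisons. Replicate numbers did not pair the libraries (same-number correlations of -0.03 to 0.01). The 28 genes, the further lists and the motifs were chosen with earlier results of these data known. Values in every library were given for YAP1, WWTR1, the regulators, STARD4, ABCA1, ABCG1 and MYLIP, and for up to 3 called genes per step with the largest change; from each further list up to 2 rises and 2 falls per comparison were named, except 1 that is not reported here. Per-library values of NR1H3 and SC5D and the NF-Y windows were added after the values were seen. For some genes of the further lists, the value in the other comparison with siNT was added in the same way.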

Additional observations from a re-analysis of the deposited data

How the results depend on the processing

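Across the scalings, filters, tools and left-out libraries tried, counts of the 28 genes stayed within 1.5 times their reported values, except in the test against a 1.2-fold change. After siTAZ that test called 0 higher and 4 lower of the 28 genes. Beside these stood 684 higher and 841 lower of the 15560 genes tested. Leaving out 1 library gave 6 higher and 17 to 19 lower of the 28 after siYAP, 3 higher and 15 to 17 lower after siTAZ, and 11 to 13 higher and 5 lower for siTAZ against siYAP. Outside the 28 genes, 12 counts of the further lists moved by more than 1.5 times when 1 library was left out. Under the other settings, stricter thresholds included, 29 counts of the further lists or of all genes moved that much and 331 did not. Direction turned only for genes that were not called. LSS after siYAP was at -0.0128 with no low-count filter and ranged from -0.0067 to 0.0183 over left-out libraries. PMVK after siTAZ ranged from -0.0518 to 0.116. For siTAZ against siYAP, MVD ranged from -0.0361 to 0.128, NSDHL from -0.0370 to 0.0621, HSD17B7 from -0.0738 to 0.0870, SC5D from -0.0061 to 0.0390 and NR1H3 from -0.171 to 0.487, and SC5D was at -0.000244 with upper-quartile scaling; the cause was not tested. With the replicate number as a block, 83 of 84 values for the 28 genes kept their side of the threshold, and NR1H3 gained a call after siYAP (log2 fold change -0.63, adjusted p = 0.0420); same-numbered libraries did not correlate. No scaling moved the median of all genes by 0.1. Depth limits ABCG1, with as few as 3 counts in a library, and NR1H3, with as few as 32.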

Other observations

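The 3′ UTR word GGATAA, picked earlier from these same data for its link to falls after siYAP, was in the UTR of 7 of the 28 genes (CYP51A1, HMGCS1, IDI1, MYLIP, NR1H2, STARD4 and TM7SF2). Of these 7, 5 fell after siYAP, as did 13 of the 21 without the word. Over all tested genes with a UTR, 45.1% with the word and 34.1% without it fell. The word ATGAAC, picked in the same way for siTAZ, was in 5 of the 28 (INSIG1, LSS, MVK, MYLIP and TM7SF2), of which 3 fell after siTAZ, as did 13 of the 23 without it. Over all tested genes 27.5% with that word and 17.3% without it fell.

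Exon bases of 13 of the 28 genes are shared with another annotated gene, 6 of them with a protein-coding one. Apart from the partners of ACAT2, the coding partners that were tested gave log2 fold changes after siYAP of 0.32 (RAI1, with SREBF1), 0.21 (VPS51, with TM7SF2), 0.44 (ACP2, with NR1H3) and -0.12 (MMAB, with MVK, adjusted p = 0.30 in edgeR's quasi-likelihood test). Genes of the further lists also share exon bases with coding genes, among them PLTP with CTSA, MBTPS2 with YY2 and LRP1 with STAT6. The part of these overlaps in their values was not tested.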
